A study of Mus musculus with 38 samples.

Results

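The Fos and Jun families encode the subunits of AP-1, a dimeric transcription factor, and 6 of their genes were followed here through ribosome footprints of mouse cortical neurons: Fos, Fosb and Fosl2 of the Fos family, and Jun, Junb and Jund of the Jun family. The genes were listed by name, with no threshold on a measured value but with earlier results of these data known, and make up 6 of the 22401 genes whose coding sequence (CDS) was counted. Fos proteins bind DNA only as partners of Jun proteins, whereas Jun proteins can also pair among themselves. Fos, Fosb, Jun and Junb are classical immediate early genes of neurons, which are switched on by calcium entry without any need for new protein, while Fosl2 and Jund are known for a slower or more even presence. In neurons the products regulate genes of plasticity, and a short form of the Fosb protein, ΔFosB, is known for its long persistence.

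The study used PL-Ribo-seq, in which a biotin ligase, TurboID, labels proteins around it, ribosome complexes are then captured on streptavidin, and the mRNA fragments inside ribosomes are sequenced. Primary cortical cultures from mouse embryos carried 1 of 2 ligases, delivered by lentivirus under a doxycycline-inducible promoter: PSD95-TurboID, which is directed to dendrites, or Pan-TurboID, which is spread through the neuron. Each culture gave an input, with all footprints, and a pulldown, with labelled ribosomes, and 38 libraries of 14 groups resulted. The labels give every group cycloheximide for 2 min and biotin for 30 min, while the study's methods give a shorter biotin step for DHPG. Those methods place the cycloheximide before the biotin step.

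In the KCl experiment, resting neurons and neurons depolarized with 55 mM KCl for 1 h and left for a further 30 min, after 2 h of silencing with tetrodotoxin and DL-AP5, gave 3 replicates of each ligase and fraction, 24 libraries in all. In the DHPG experiment, PSD95-TurboID neurons were silenced for 2 h and received DHPG at 100 µM for 10 min, which activates metabotropic glutamate receptors of group I (3 inputs and 3 pulldowns). The study's methods give a shorter recovery after DHPG than after KCl. In the knockdown experiment, PSD95-TurboID neurons were exposed for 72 h to 20 nM siRNA against eIF4G2, a translation initiation factor, and were left at rest or depolarized as above (2 replicates of each fraction, 8 libraries). The labels give the silencing step only for stimulated cultures, so by these labels KCl and silencing cannot be told apart. Libraries with a control siRNA were not analysed here, and the resting group for DHPG comes from the KCl experiment, so treatment and experiment cannot be told apart in comparisons across experiments. Some label texts describe the DHPG inputs and the knockdown libraries as cytosol, but their virus field names PSD95-TurboID, which was followed here.

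Libraries held 5906281 to 35643247 counts, of which 2048604 to 14646402 lay in the CDSs used. No library looked like a copy of another one of its group. The knockdown label was checked on Eif4g2, whose level was 284 and 284 CPM (CDS counts of a gene, scaled so that the CDS counts of every library have the same sum, 1e6) in resting knockdown inputs, against 562, 565 and 582 in resting PSD95-TurboID inputs without siRNA, a log2 difference of -0.98 (SE 0.19, edgeR adjusted p = 0.00375). In depolarized inputs it was 337 and 323 against 576, 538 and 772, a log2 difference of -0.90 (SE 0.19, edgeR adjusted p = 0.00638). Both calls were lost without either knockdown input of that state (edgeR adjusted p at least 0.0972), with values of -0.89 to -0.96. All 10 neuronal markers had counts in every library. Their summed level was 8369 to 9311 CPM in resting inputs and 6972 to 11463 in depolarized inputs. Astrocyte markers summed to 532 to 1056 and 585 to 1122, oligodendrocyte lineage markers to 244 to 608 and 162 to 415, fibroblast and pericyte markers to 232 to 435 and 106 to 382, endothelial markers to 12.5 to 49.4 and 5.54 to 65.9, and microglial markers to 1.39 to 3.82 and 1.28 to 5.73, in the same order of states. Whether the counts of glial and other markers came from such cells or from low levels in neurons was not tested. In bulk samples, fewer cells of a type and less RNA per cell cannot be told apart.

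All 6 genes are small. In mm10 coordinates, the counted Fos transcript (ENSMUSG00000021250) has its CDS at chr12:85474040-85476458 on the plus strand, with 1143 coding nucleotides in 4 exons and a 5′ UTR of 150. The CDS of Fosb (ENSMUSG00000003545) lies at chr7:19304841-19309431 on the minus strand, with 1017 coding nucleotides in 4 exons and a 5′ UTR of 620. Fosl2 (ENSMUSG00000029135), the gene of FRA2, has its CDS at chr5:32136704-32153189 on the plus strand, with 981 coding nucleotides in 4 exons and a 5′ UTR of 903. The 3 Jun genes have 1 coding exon each and no intron inside the CDS. Jun (ENSMUSG00000052684) lies at chr4:95050267-95051271 on the minus strand, with 1005 coding nucleotides and a 5′ UTR of 951. Junb (ENSMUSG00000052837) lies at chr8:84977395-84978429 on the minus strand, with 1035 and 289. Jund (ENSMUSG00000071076) lies at chr8:70699058-70700083 on the plus strand, with 1026 and 109. For each gene the longest transcript also had the highest summed CDS count of its coding transcripts.

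The promoters of the 6 genes were read for short sites of the factors that are known to drive immediate early genes. In RefSeq windows of GRCm38.p6, which reach from 250 bases before to 50 after a gene's annotated start, the CRE half-site TGACG, bound by CREB, occurred in Fos, Fosb and Junb, that is in 3 of 6 genes, and in 20.8% of all 32817 windows. Both strands were searched, and every match in these genes was on the gene's own strand. The windows that hold the matches are shown because they give the place of each match relative to the start. Whether a match goes with the response to KCl was not tested. Capitals mark the match, and distances are counted from the annotated start.
Fos, at -129, chr12:85473750-85473777, plus strand: gggcgtagagtTGACGacagagcgcccg
Fos, at -66, chr12:85473813-85473840, plus strand: gttccgcccagTGACGtaggaagtccat
Fosb, at -60, chr7:19310089-19310116, minus strand: ggagttgcgggTGACGcaagcgcggggg
Junb, at -106, chr8:84978838-84978865, minus strand: cttcctgacagTGACGcgagccgcctcc

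The TATA box TATAAA was found in Fos and Junb, and in 13.6% of all windows. It is shown because its place relates to the start of the counted transcripts.
Fos, at -33, chr12:85473846-85473873, plus strand: cacagcgcttcTATAAAggcgccagctg
Junb, at 1, chr8:84978732-84978759, minus strand: gacaaattcagTATAAAagcttggggct
The counted Junb transcript starts 30 bases downstream of the RefSeq start, so that the box lies before it. The full CRE palindrome TGACGTCA (1.79% of all windows), the AP-1 site TGANTCA (7.81%) and the CArG box (1.63%) matched in none of the 6 windows. This says only that these letters are not in the windows, and sequence more than 250 bases upstream of the annotated start was not read. The RefSeq start and the 5′ end of the counted transcript differed by 0 bases for Fos and Jun, 6 for Fosb, 671 for Fosl2 and 1210 for Jund, so the windows of the last pair lie away from the counted 5′ ends. A match is a description of the sequence and was not tied to any binding here.

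At rest the family was held mainly by Jund and Fosl2. Levels between genes were compared as CPM per kilobase of CDS, over the 6 resting inputs (median, with the lowest and highest). Jund stood at 421 (289 to 515), Fosl2 at 343 (299 to 578), Fos at 251 (157 to 407), Jun at 162 (124 to 195), Junb at 80.1 (63.4 to 112) and Fosb at 33.1 (23.1 to 94.8). Jund and Fosl2 overlapped almost entirely, and the other neighbours in the order overlapped as well, except Jun and Junb, whose ranges were apart. Together the 6 genes took 0.124% ± 0.0147 (SD, n = 3) of CDS counts in resting Pan-TurboID inputs and 0.152% ± 0.0422 (SD, n = 3) in resting PSD95-TurboID inputs. After KCl these shares were 0.520% ± 0.0471 and 0.637% ± 0.193 (SD, n = 3 each).

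**Figure D1:**
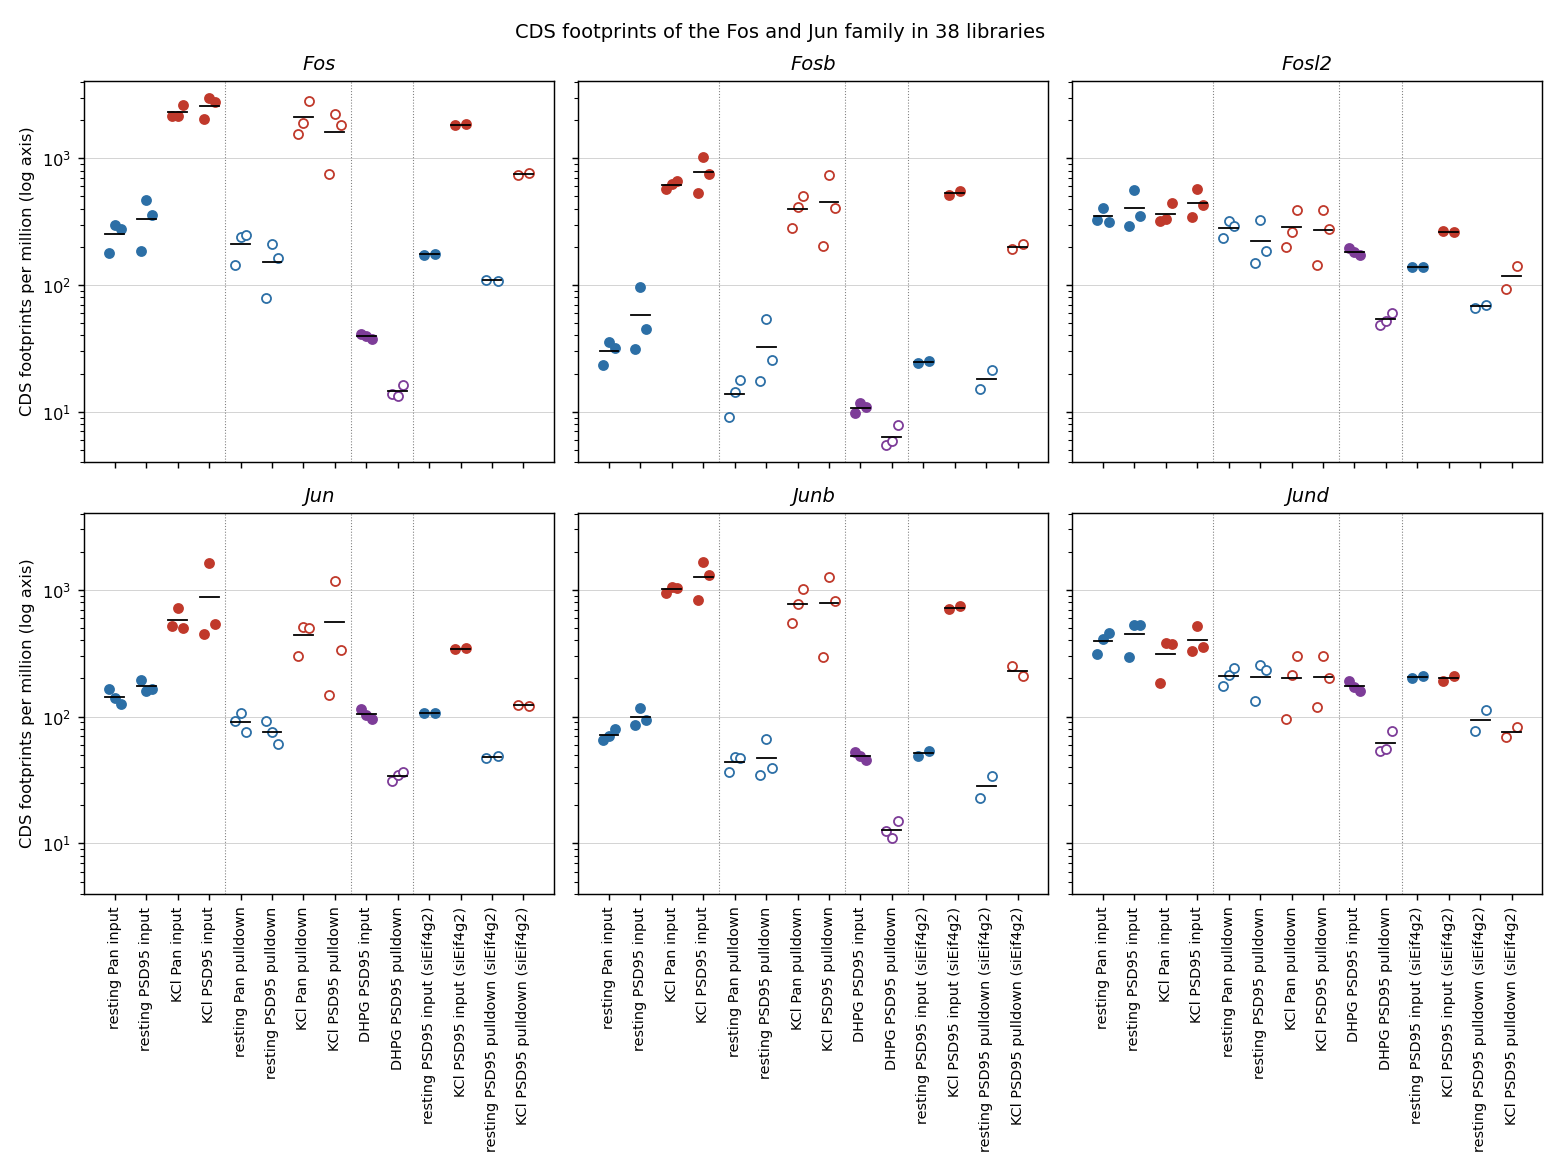
CDS CPM of each of the 6 genes in all 38 libraries, on a log axis, with 1 panel for each gene, 1 point for each library (filled for inputs, open for pulldowns) and a line at each group mean. Fos, Fosb, Jun and Junb are higher in every depolarized input than in any resting input, while resting and depolarized points of Fosl2 and Jund share their range.

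Depolarization, with the silencing that preceded it by the labels, raised 4 of the 6 genes in the inputs, Fosb, Junb, Fos and Jun. Neither Fosl2 nor Jund passed the test in either direction. The rises ranged from 4.59-fold for Jun to 16.8-fold for Fosb. Over all 13019 genes tested, 6.32% were called higher and 9.03% lower at an adjusted p under 0.05 (edgeR's quasi-likelihood test on the 12 inputs within 1 fit of the 24 libraries). Cultures of different number are separate in the study's methods, but a pulldown and its input share a culture, so not all libraries behind the spread in this fit are independent.

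Fos, the partner that Jun proteins need for a classical AP-1 dimer, had 179.6, 295.9 and 279.0 CDS CPM in resting Pan-TurboID inputs and 184.1, 464.9 and 354.4 in resting PSD95-TurboID inputs. After KCl it had 2145.8, 2138.2 and 2620.4 in Pan-TurboID inputs and 2044.7, 2968.0 and 2794.8 in PSD95-TurboID inputs. The lowest depolarized input was more than 4 times the highest resting one, and replicate 1 was the lowest of both resting groups. The log2 fold change was 3.10 (SE 0.29, edgeR adjusted p = 1e-07), or 8.56-fold.

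Fosb, the second Fos gene with full-length and short protein forms, was the scarcest member at rest, with 23.5, 35.6 and 31.7 CPM in Pan-TurboID inputs and 31.1, 96.4 and 45.2 in PSD95-TurboID inputs. Depolarized Pan-TurboID inputs held 571.1, 621.7 and 658.8, and PSD95-TurboID inputs 535.3, 1031.2 and 750.5. The groups lay far apart, and replicate 2 of PSD95-TurboID was the highest in both states. The log2 fold change was 4.07 (SE 0.36, edgeR adjusted p = 6.4e-08), or 16.8-fold, the largest of the 6.

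Junb, a Jun protein with weaker transactivation than Jun, had 65.6, 70.0 and 80.2 CPM in resting Pan-TurboID inputs and 85.7, 116.0 and 94.8 in resting PSD95-TurboID inputs. After KCl it had 952.4, 1062.2 and 1043.5, and 836.9, 1664.1 and 1318.0. No depolarized value came near a resting one. The log2 fold change was 3.78 (SE 0.26, edgeR adjusted p = 3.9e-10), or 13.8-fold.

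Jun, the main partner of Fos, rose less and more unevenly. Resting inputs held 165.9, 140.4 and 124.8 CPM with Pan-TurboID and 196.3, 158.8 and 166.3 with PSD95-TurboID, and depolarized inputs 522.2, 719.8 and 497.2, and 449.7, 1630.8 and 536.1. Replicate 2 of PSD95-TurboID was more than 3 times each of the other PSD95-TurboID replicates, and its pulldown stood out in the same way. The log2 fold change was 2.20 (SE 0.36, edgeR adjusted p = 0.00032), or 4.59-fold, and was 1.74 to 2.44 over 10 other settings, which included leaving out each replicate number.

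Fosl2, a Fos protein without the transactivation domain of Fos, had 325.4, 405.0 and 315.8 CPM in resting Pan-TurboID inputs and 293.6, 566.6 and 347.4 in resting PSD95-TurboID inputs. Depolarized inputs held 322.5, 329.8 and 445.1, and 341.6, 573.5 and 425.8. The states overlapped through most of their range. The log2 fold change was 0.13 (95% interval -0.33 to 0.60, edgeR adjusted p = 0.75).

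Jund, which is known to restrain growth where Jun promotes it, had 313.2, 408.8 and 454.4 CPM in resting Pan-TurboID inputs and 296.4, 528.1 and 527.7 in resting PSD95-TurboID inputs. After KCl it had 185.5, 378.2 and 371.7, and 330.9, 515.9 and 356.7. The states again overlapped, with the lowest value in a depolarized library. The log2 fold change was -0.23 (95% interval -0.75 to 0.28, edgeR adjusted p = 0.59). For both genes the interval leaves out changes of the size seen in the other 4, but not a modest change.

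Footprints in pulldowns moved with those in inputs. In PSD95-TurboID pulldowns KCl raised 4 of the 6 genes (3.31% of all genes were called higher and 3.28% lower), with log2 fold changes of 3.40 for Fos (SE 0.42), 3.77 for Fosb (SE 0.50), 2.86 for Jun (SE 0.53) and 4.06 for Junb (SE 0.38), all with an edgeR adjusted p of at most 0.0025. The value of Jun ran from 1.70 without replicate 2 to 3.41 without replicate 1, with an adjusted p of up to 0.046 over 10 other settings. Fosl2 had 0.28 (SE 0.32) and Jund 0.01 (SE 0.36), and neither passed. In Pan-TurboID pulldowns 4 of 6 rose too (1.87% of all genes were called higher), with 3.36 for Fos (SE 0.42), 4.88 for Fosb (SE 0.53), 2.31 for Jun (SE 0.52) and 4.19 for Junb (SE 0.38). Without replicate 3, Jun in Pan-TurboID pulldowns had 2.13 and was no longer called (edgeR adjusted p = 0.20).

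The same-numbered libraries were processed together, so each depolarized library was also set against its resting counterpart of the same number, ligase and fraction. Over 12 such pairs, the ratio of CDS CPM had a median of 9.97 for Fos (6.38 to 11.9), 17.3 for Fosb (10.7 to 30.5), 4.42 for Jun (1.60 to 15.6) and 14.8 for Junb (8.47 to 21.3). All 12 ratios were above 1 for each of these genes. Fosl2 had a median of 1.09 (0.814 to 1.47) with 7 ratios above 1, and Jund 0.915 (0.553 to 1.22) with 4 above 1. The lowest and the highest Jun ratio both came from PSD95-TurboID pulldowns, replicate 1 (91.7 at rest and 146.8 after KCl) and replicate 2 (75.6 and 1181.7).

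**Figure D2:**
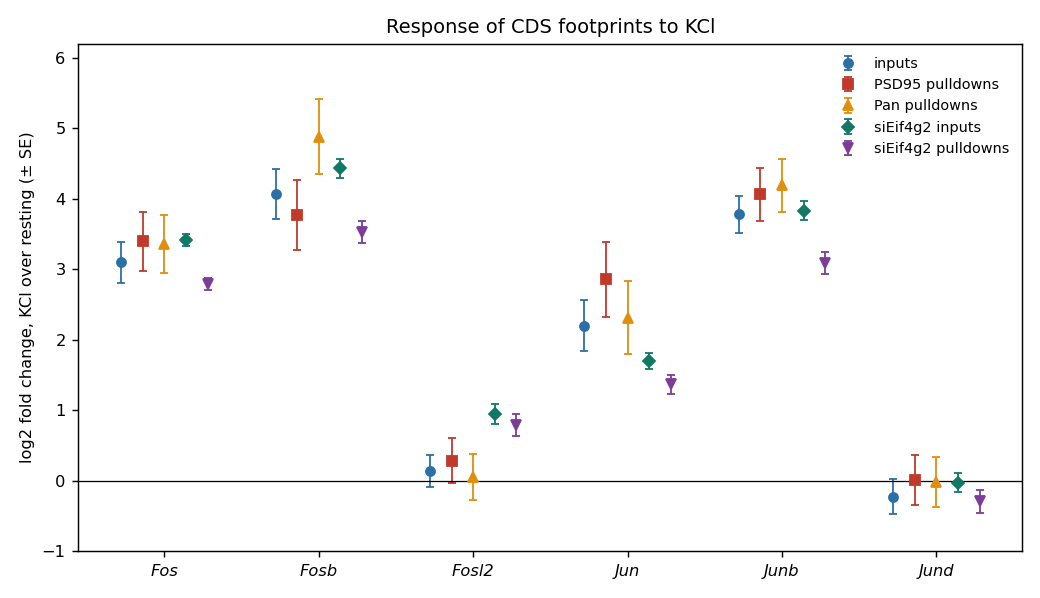
Log2 fold change with KCl of each of the 6 genes, by edgeR, in inputs, PSD95-TurboID pulldowns, Pan-TurboID pulldowns and the inputs and pulldowns of eIF4G2 knockdown neurons, with bars of 1 SE. Fos, Fosb, Jun and Junb lie between 1.36 and 4.88 in each set, Jund lies between -0.30 and 0.01, and Fosl2 lies between 0.05 and 0.28 without siRNA and at 0.94 and 0.79 in knockdown inputs and pulldowns.

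The unequal response recast the makeup of the family. Each gene's share of the summed per-kilobase levels of the 6 genes was computed in each input and compared between 6 resting and 6 depolarized inputs by a two-sided exact permutation test, for which the smallest possible p is 0.00216. Jund fell from 30.8% ± 3.59 to 6.41% ± 1.28 (SD, n = 6 each) and Fosl2 from 28.7% ± 3.25 to 7.67% ± 0.643, both with an exact p of 0.00216. Fos rose from 18.7% ± 2.91 to 40.3% ± 4.18, Junb from 6.25% ± 0.872 to 20.4% ± 1.15 and Fosb from 3.06% ± 1.03 to 12.6% ± 0.229, each with an exact p of 0.00216. For these 5 genes no resting input overlapped a depolarized one. The share of Jun was 12.4% ± 3.85 and 12.7% ± 4.29 (difference 0.247 percentage points, exact p = 0.907), since its rise was close to that of the family sum. The 6 shares add up to the whole and are not independent of each other. Inputs of 1 number also correlated between the ligases within a state (0.28 to 0.63 for deviations from group means over all genes), so the 6 inputs of a state are not fully independent. With inputs paired by number, exact sign flips gave p = 0.03125 for each of the same 5 genes, the smallest p that 6 pairs can give. Each number enters once for each ligase, so these pairs are not fully independent either. Fosb held its share within 12.3% to 12.8% in all 6 depolarized inputs, the narrowest range of any member, while that of Jun ran from 9.24% to 20.5%, with the highest value in replicate 2 of PSD95-TurboID.

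**Figure D3:**
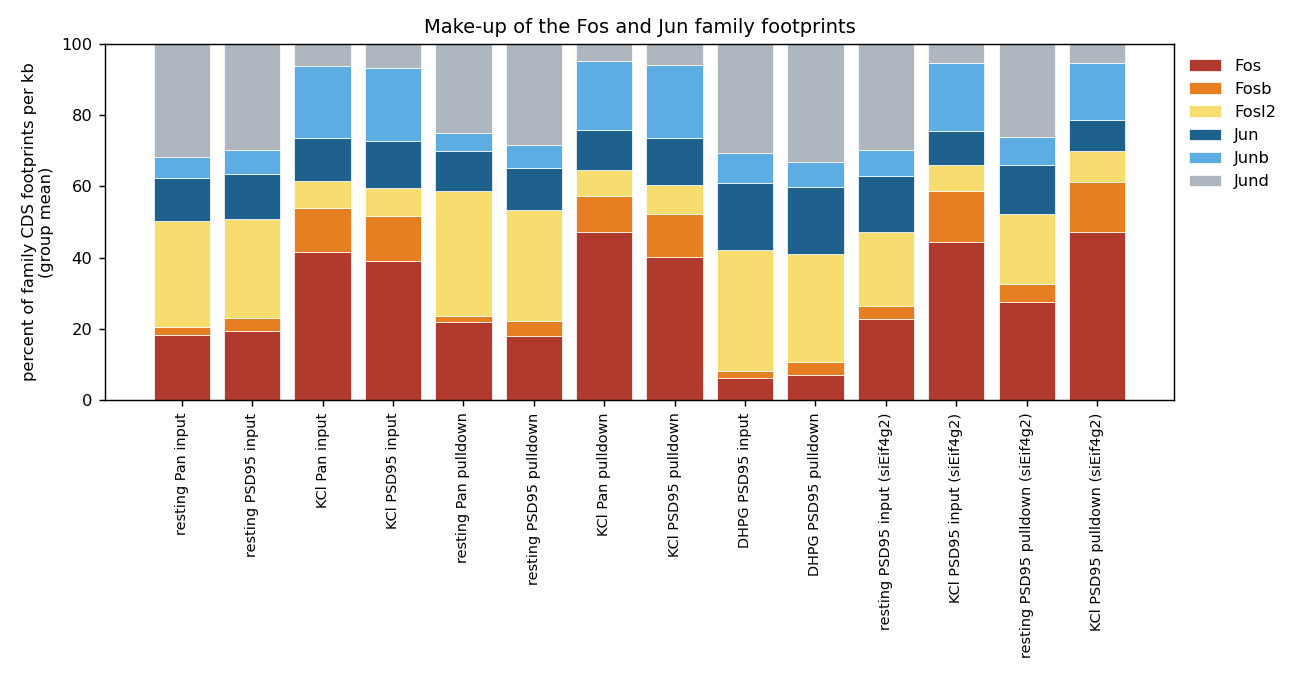
Share of each of the 6 genes in their summed CDS level per kilobase, in percent, as stacked group means of all 14 groups, each bar adding up to the whole. Jund and Fosl2 hold the largest parts of resting inputs of the KCl experiment (means of 30.8% and 28.7% over both ligases), and Fos and Junb those of its depolarized inputs (40.3% and 20.4%), while in resting knockdown inputs Fos (22.7%) exceeds Fosl2 (20.9%).

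Footprints in 5′ UTRs rose as well. Because, per the file headers, a footprint was assigned to its 5′ end without an offset, ribosomes on the start codon are counted in the 5′ UTR, and a high count there holds initiating ribosomes and any upstream translation alike. The part in these counts of the cycloheximide added before the biotin step was not tested. In inputs, 5′ UTR counts of 4 of the 6 genes rose with KCl against 0.443% of all 10158 genes tested, with log2 fold changes of 2.59 for Fos (SE 0.37), 3.63 for Fosb (SE 0.39), 1.51 for Jun (SE 0.36) and 2.81 for Junb (SE 0.37). The edgeR adjusted p of Jun was 0.020, and its call was lost without replicate 2 (log2 fold change 1.27) and without replicate 3 (1.54). Fosl2 had 0.55 (SE 0.34) and Jund 0.74 (SE 0.38), neither of which passed. In PSD95-TurboID pulldowns the same 4 genes were called (0.285% of all genes were called higher), with 2.71, 3.85, 2.29 and 3.63 in the same order, while the median of all genes was itself 0.65. Those 4 calls were 2 without replicate 2, Fosb and Junb, where 6 of 9779 genes were called in all. Without replicate 3 none of 10473 genes was called, while the values of the 4 were 3.10, 3.83, 2.56 and 3.68 in the same order. With library sizes and TMM factors taken from the 5′ UTR counts themselves, Fos had 1.95 and lost its call (edgeR adjusted p = 0.068).

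The density of footprints per base was higher in the 5′ UTR than in the CDS for most members. In resting inputs the ratio of the densities had a median of 4.05 for Fos (2.36 to 5.12), 2.94 for Junb (1.98 to 5.44), 2.40 for Fosb (1.31 to 3.70) and 1.58 for Jun (1.34 to 1.93). It was 0.999 for Jund (0.709 to 1.25) and 0.970 for Fosl2 (0.640 to 1.14). After KCl it was 2.79 for Fos, 1.71 for Junb, 1.71 for Fosb and 1.04 for Jun, but 2.07 for Jund and 1.22 for Fosl2. The 4 induced members thus had lower medians after KCl, and the other pair higher ones.

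The share of 5′ UTR counts in 5′ UTR plus CDS counts was compared between the same 6 and 6 inputs. It is computed from the same counts as the densities, so it follows the same split by construction. Its median in resting and depolarized inputs was 34.5% and 26.8% for Fos, 58.1% and 51.0% for Fosb, 59.8% and 49.3% for Jun, and 45.0% and 32.3% for Junb. For Fosl2 it was 47.2% and 52.9%, and for Jund 9.59% and 17.99%. On the log2 scale of the ratio of 5′ UTR to CDS counts, with a pseudocount of 0.5, Jund was higher after KCl by 0.99 (exact permutation p = 0.00216) and Jun lower, with -0.65 (exact p = 0.00216).
Junb had -0.89 (exact p = 0.00433), Fosl2 0.48 (exact p = 0.00649), Fos -0.52 (exact p = 0.0303) and Fosb -0.41 (exact p = 0.201). None of the 6 differences passed the Benjamini-Hochberg adjustment over all 13946 genes. The lowest adjusted p was 0.0816 for Jun and Jund by the permutation test (0.29 with exact sign flips of inputs paired by number). Of all genes 0% passed it, although 2083 genes had an unadjusted p under 0.05. Jun and Jund had the smallest p that the permutation test can give, and sign flips of 6 pairs have a higher smallest p. The tests are too coarse here for the lack of passing genes to show that no share changed. The median of all genes was 0.17. Over all genes, 5′ UTR counts made up 16.6% to 22.5% of 5′ UTR and CDS counts in resting inputs and 16.9% to 27.5% in depolarized inputs, against 5.71% to 10.3% and 5.13% to 18.7% in pulldowns, a difference between libraries whose part in these results was not tested.

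**Figure D4:**
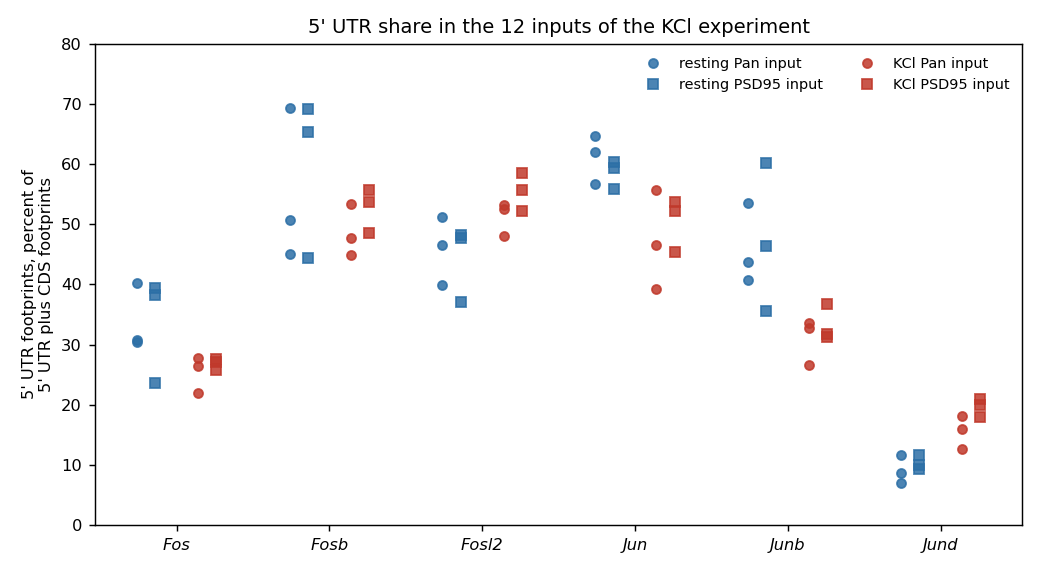
Percent of 5′ UTR counts in 5′ UTR plus CDS counts for each of the 6 genes, with 1 point for each resting and depolarized input. All 6 depolarized inputs lie above the resting ones for Jund, and all lie below them for Jun, against 3.08% of all genes with all 6 above and 0.767% with all 6 below.

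Within the CDS, footprints of Fos were spread unevenly over its 4 coding exons. The last exon (chr12:85475817-85476458, 642 nucleotides, 56.2% of the CDS) held 52.3% to 74.8% of Fos CDS counts in resting inputs (median 61.1%) and 71.1% to 80.8% in depolarized inputs (median 76.0%). In DHPG inputs, where Fos was lowest among input groups, it held 39.8% to 45.3%, and the first coding exon, 12.3% of the length, held 33.9% to 39.2%. A 105-nucleotide stretch of the first intron, which belongs to a non-coding transcript of the gene, gathered 356 counts over the 38 libraries, against 185457 in the Fos CDS. Counts in 3′ UTRs were few, with medians of 0% to 1.85% of the CDS count over the 6 genes in resting inputs and 0.0709% to 1.77% in depolarized inputs.

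In Fosb, transcripts that encode the short form lack a stretch of 140 nucleotides within the last coding exon (chr7:19304841-19305302, 462 nucleotides). The stretch lies at chr7:19305007-19305146 in mm10, after 156 nucleotides (chr7:19305147-19305302) shared by both forms and before 166 (chr7:19304841-19305006) that only the longer CDS reads in this frame to its stop. Both ends of the stretch, on the minus strand with the stretch in capitals, are shown because they set the boundary between the counts of the long form and those of both forms.
5′ end, chr7:19305133-19305160: gcccgctggccgagGTGAGAGATTTGCC
3′ end, chr7:19304993-19305020: CTCTTTACACACAGtgaagttcaagtcc
The stretch begins with GT and ends with AG, the letters of an intron's ends.

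The density of footprints in the stretch was divided by that in the shared part before it. A ratio of 1 would mean equal density. Over the 6 depolarized inputs the ratio was 0.497 to 1.06 (median 0.580), and the ratio for the part after the stretch was 0.471 to 0.891 (median 0.650). Over the 6 resting inputs it was 0.0495 to 0.810 (median 0.400) in the stretch and 0.357 to 0.738 (median 0.415) after it, from only 2 to 36 counts in the stretch for each library. With counts summed over libraries, the ratio in the stretch was 0.310 from 78 counts at rest and 0.606 from 2516 counts after KCl. In pulldowns of the same cultures the summed ratio was 0.683 from 87 counts and 0.698 from 1863. Of those 87 counts, 58 came from PSD95-TurboID replicate 2, whose ratio was 1.24. The median over pulldowns was 0.399 at rest and 0.737 after KCl, further apart than in inputs. In knockdown inputs the summed ratio was 0.498 from 38 counts and 0.555 from 320. The ranges overlapped, and the values are given as a description. Since footprints are placed by their 5′ ends, those that begin just before the stretch can belong to ribosomes already inside it, and the fragments that span the junction of the short form are counted with the shared part.

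**Figure D5:**
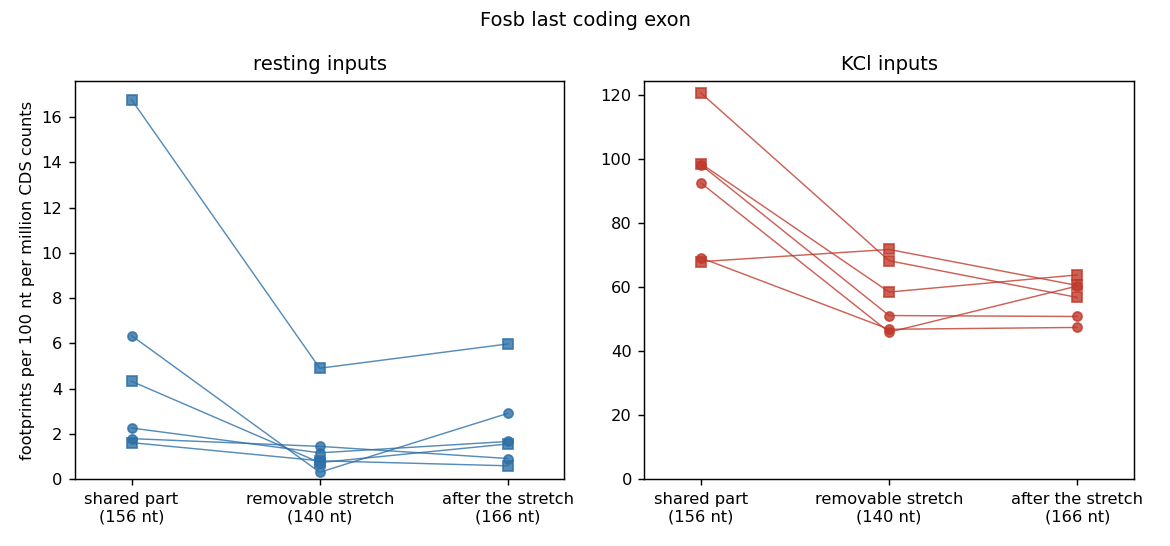
Footprint density in the 3 parts of the last coding exon of Fosb, in footprints per 100 nucleotides scaled to the CDS total, in resting (left) and depolarized (right) inputs, with 1 line for each library, circles for Pan-TurboID and squares for PSD95-TurboID. The y axes differ in scale, and density in the stretch is below that in the shared part in every resting input and in 5 of 6 depolarized inputs.

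In pulldowns the 6 genes lay mostly below inputs, but in the KCl experiment few of these differences passed the test without a block. Over the 6 genes and the same 19 pairs of a pulldown and its same-numbered input, the pulldown had the lower CDS CPM in 113 of 114 comparisons, and in 112 after TMM scaling, against 54.0% of such comparisons over the 13019 genes tested. The 6 genes share their libraries, so these comparisons are not independent. In resting PSD95-TurboID pulldowns, the bait for dendritic ribosomes, Fos stood at 79.4, 212.3 and 162.1 CPM, Jund at 132.1, 254.3 and 234.8, and Junb at 34.7, 67.0 and 39.1. Against the mean of both sets of resting inputs, the log2 difference was -0.90 for Fos (SE 0.35), -0.31 for Fosb (SE 0.41), -0.72 for Fosl2 (SE 0.29), -1.02 for Jun (SE 0.46), -0.80 for Junb (SE 0.31) and -0.99 for Jund (SE 0.32). In this comparison 16.4% of all genes were called lower, and Jund alone among the 6 was called (edgeR adjusted p = 0.022). The adjusted p of Fos and Junb was 0.051, that of Fosl2 0.058. Without replicate 2 and without replicate 3 the call for Jund was lost (edgeR adjusted p = 0.097 and 0.17) at values of -1.05 and -0.96, with 2323 and 16 genes called in all, while without replicate 1 Fos (-0.81) and Junb (-0.66), and without replicate 2 Fosl2 (-0.85), Jun (-1.01) and Junb (-1.07), were called.

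Pulldown and input of 1 number, ligase and state come from the same culture. A fit with state and replicate number as a block gave 5 calls among the 6 genes, against 22.9% of all genes called lower. Each such block holds the cultures of both ligases, so it is not the culture itself. In that blocked fit the log2 differences were -0.95 for Fos, -0.77 for Fosl2, -1.03 for Jun, -0.84 for Junb and -1.01 for Jund, with edgeR adjusted p from 1.7e-05 to 0.0044, and -0.38 for Fosb (adjusted p = 0.19). In depolarized neurons the values without a block were -0.61 for Fos, -0.62 for Fosb, -0.57 for Fosl2, -0.36 for Jun, -0.52 for Junb and -0.75 for Jund, with 0 of 6 called against 6.84% of all genes called lower. Without replicate 2, Jun had -1.05, Fosb -1.04 and Fosl2 -0.86, all called by edgeR (adjusted p from 0.019 to 0.038), and without replicate 1 Jund had -0.65 and was called. Over 11 other settings the value of Jun ran from -1.05 to -0.07. That of Fos ran from -0.90 to -0.33, that of Fosb from -1.04 to -0.37 and that of Fosl2 from -0.86 to -0.36. Junb ran from -0.90 to -0.23 and Jund from -0.93 to -0.62. With the block, 5 were called, all but Jun, at -0.62 to -0.80 (edgeR adjusted p from 0.00042 to 0.015), against 15.9% of all genes. Jun had -0.62 with the block (adjusted p = 0.075), where replicate 2 stood apart as described above.

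The difference between pulldown and input did not detectably change with KCl for any of the 6. The interaction of state and fraction gave log2 values of 0.30 for Fos (95% interval -0.67 to 1.27), -0.30 for Fosb (-1.46 to 0.86), 0.15 for Fosl2 (-0.66 to 0.96), 0.66 for Jun (-0.62 to 1.94), 0.28 for Junb (-0.58 to 1.14) and 0.24 for Jund (-0.66 to 1.13). By edgeR's quasi-likelihood test 0 of 13019 genes, or 0%, passed, with 343 at an unadjusted p under 0.05.

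Pan-TurboID pulldowns, whose bait is not directed to dendrites, had values below those of their inputs, but none passed the test without a block. The resting log2 differences were -0.21 for Fos, -1.07 for Fosb, -0.25 for Fosl2, -0.61 for Jun, -0.66 for Junb and -0.85 for Jund, with 0 of 6 called against 5.04% of all genes called lower, though Jund was called without replicate 1 (-0.84, edgeR adjusted p = 0.026). With the replicate block, Fosb (-1.06), Junb (-0.68) and Jund (-0.84) were called by edgeR, against 15.1% of all genes. In depolarized neurons they were -0.09, -0.59, -0.32, -0.37, -0.35 and -0.58 in the same order, with 0 of 6 called against 3.64%, and with the block Fosb (-0.63) and Jund (-0.61) were called against 13.8%. The difference of the ligases, PSD95-TurboID beyond Pan-TurboID over both states, was -0.73 for Fos (95% interval -1.53 to 0.06), 0.07 for Fosb (-0.87 to 1.01), -0.47 for Fosl2 (-1.13 to 0.19), -0.40 for Jun (-1.43 to 0.64), -0.33 for Junb (-1.03 to 0.36) and -0.29 for Jund (-1.02 to 0.44). None of the 6 was called, and of all genes 0.00768%, which is 1 gene, was called, with 169 at an unadjusted p under 0.05 (edgeR).

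After DHPG the summed level of the family was lowest among input groups and lowest among pulldown groups. The study, which measured Arc, Fos and Jun mRNA by qPCR, describes immediate early gene expression as similar after KCl and DHPG. The values here are footprints rather than mRNA, and the resting inputs come from another experiment. The 6 genes took 0.0561% of CDS counts in DHPG inputs and 0.0183% in DHPG pulldowns. Fos had 41.4, 39.4 and 37.5 CPM in DHPG inputs, below every resting PSD95-TurboID input (184.1 to 464.9). Fosb had 9.9, 11.6 and 10.8 against 31.1 to 96.4, and Junb 52.8, 48.7 and 45.8 against 85.7 to 116.0.
For all 6 genes the DHPG inputs lay below the resting PSD95-TurboID inputs of the KCl experiment without overlap. The same held for 31.4% of the 12803 genes tested. The log2 differences were -2.98 for Fos (SE 0.43), -2.31 for Fosb (SE 0.50), -1.03 for Fosl2 (SE 0.31), -0.63 for Jun (SE 0.14), -0.91 for Junb (SE 0.22) and -1.28 for Jund (SE 0.29), all called by edgeR (adjusted p at most 0.028), against 16.5% of all genes called lower. Fosl2 lost its call, at values of -1.08, -1.03 and -0.98, without any single DHPG input (edgeR adjusted p from 0.0667 to 0.0918) and without resting replicate 2 (log2 difference -0.69, adjusted p = 0.084), and also with no filter on low counts (-0.99, adjusted p = 0.067). Between DHPG and resting pulldowns all 6 were lower too, from -0.94 for Jun to -3.15 for Fos, against 26% of all genes called lower. Against resting knockdown inputs, DHPG inputs were lower for Fos, Fosb and Jund, overlapped for Jun and Junb, and were higher for Fosl2. Fosl2 had 171.4 to 196.0 CPM in DHPG inputs and 137.6 to 139.7 in resting knockdown inputs.

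Markers of other cell types differed between these experiments as well. Summed levels in DHPG inputs were 219 to 229 CPM for astrocyte markers, 44.5 to 47.9 for oligodendrocyte lineage markers and 33.8 to 34.7 for fibroblast and pericyte markers, each below the range of resting inputs. Of the markers tested, 5 of 6 astrocyte, 5 of 7 oligodendrocyte lineage and 3 of 4 fibroblast and pericyte genes were called lower, with medians of -2.37, -3.33 and -3.65, whereas 4 neuronal markers were called higher and 1 lower. Their part in the lower AP-1 levels was not tested. The labels give the silencing step for the DHPG cultures and not for the resting ones. Experiment, agonist and silencing cannot be told apart.

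Within the DHPG experiment the pulldowns were again lower than the inputs, with smaller error. The chi-square per degree of freedom between replicates, which sets their spread against counting noise, was 1.48 to 1.90 in DHPG inputs. It was 2.83 to 8.87 in DHPG pulldowns and 8.61 to 47.5 in the groups of the KCl experiment. Whether the smaller errors cover the spread between cultures was not tested. Fos had 13.9, 13.3 and 16.2 CPM in pulldowns, Fosb 5.5, 5.9 and 7.8, and Junb 12.5, 10.97 and 15.0. The log2 differences were -1.23 for Fos (SE 0.11), -0.52 for Fosb (SE 0.18), -1.56 for Fosl2 (SE 0.08), -1.40 for Jun (SE 0.09), -1.72 for Junb (SE 0.12) and -1.27 for Jund (SE 0.11). All 6 were called by edgeR (adjusted p at most 0.012), against 39.3% of all genes called lower. Fosb was the least reduced and lost its call when the trend with CDS length was removed (-0.26, edgeR adjusted p = 0.21) and without replicate 2 (-0.40, adjusted p = 0.13).

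In neurons with less eIF4G2, KCl again raised Fos, Fosb, Jun and Junb, and here Fosl2 rose as well. The resting knockdown inputs held 174.1 and 175.9 CPM of Fos and 24.4 and 25.2 of Fosb, and the depolarized ones 1829.8 and 1860.8, and 511.8 and 551.3. Fosl2 had 139.7 and 137.6 at rest and 267.3 and 261.0 after KCl. Jund had 202.3 and 209.0, and then 189.6 and 210.5, which overlap. Summed markers moved with KCl in these inputs too, at 594 to 608 and then 723 to 757 CPM for astrocytes. They were at 169.7 to 174 and then 279 to 292 for fibroblasts and pericytes, and at 65.2 to 65.6 and then 77.6 to 96.4 for endothelial cells. Neuronal markers were at 9159 to 9367 and then 7249 to 7408, and the other sets overlapped. The part of these markers in the AP-1 changes was not tested.
The log2 fold changes in inputs were 3.41 for Fos (SE 0.09), 4.43 for Fosb (SE 0.14), 0.94 for Fosl2 (SE 0.14), 1.69 for Jun (SE 0.12) and 3.83 for Junb (SE 0.13), all called by edgeR (adjusted p at most 1.2e-05), and -0.03 for Jund (SE 0.14, not called). Of all genes 8.96% were called higher and 10.3% lower. Between the 2 replicates of each knockdown group, the chi-square per degree of freedom was 2.81 to 4.65, against 8.61 to 47.5 in the KCl experiment. Whether the small errors of the knockdown fit cover the spread between cultures was not tested. In knockdown pulldowns the same 5 were called higher, with 2.79, 3.52, 0.79, 1.36 and 3.09 in the same order, against 10.2% of all genes, and Jund had -0.30 (SE 0.16, edgeR adjusted p = 0.21). Without resting pulldown replicate 1, Jund had -0.58 and was called lower (edgeR adjusted p = 0.013).

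The response to KCl was then compared directly between neurons with and without siRNA. In inputs the difference of the log2 fold changes was 0.46 for Fos (95% interval -0.77 to 1.70), 0.69 for Fosb (-0.94 to 2.33), 0.80 for Fosl2 (-0.27 to 1.87), -0.63 for Jun (-2.55 to 1.28), 0.15 for Junb (-1.04 to 1.34) and 0.15 for Jund (-0.81 to 1.10). None passed in edgeR, where 1 of 13197 genes did, or 0.00758%, with 369 at an unadjusted p under 0.05. In pulldowns the differences were -0.57, -0.24, 0.55, -1.45, -0.97 and -0.28 in the same order, and none passed, against 0.447% of all genes, with 1243 at an unadjusted p under 0.05. The pulldown value of Jun rested largely on depolarized replicate 2 without siRNA, since it was -0.32 without that library and ran to -1.92 without replicate 1. So the call for Fosl2 with siRNA and its absence without it do not show a difference, and the depolarized knockdown inputs of Fosl2 (267.3 and 261.0) lay below all untreated PSD95-TurboID inputs, resting (293.6 to 566.6) or depolarized (341.6 to 573.5).

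Against untreated PSD95-TurboID inputs, resting knockdown inputs were lower for all 6 genes in the fitted values, at -0.92 for Fos, -1.20 for Fosb, -1.52 for Fosl2, -0.68 for Jun, -0.93 for Junb and -1.12 for Jund. Over 11 other settings Fos ran from -1.22 to -0.59 and Fosb from -1.52 to -0.575, and neither was called in any. Fosl2 alone was called (SE 0.38, edgeR adjusted p = 0.027), against 2.01% of all genes called lower, and its call was lost without resting replicate 2 (-1.18) and without either knockdown input (-1.51 and -1.49), while Jund was called without resting replicate 1 (-1.35). In depolarized inputs the values were -0.46, -0.50, -0.73, -1.31, -0.78 and -0.97 in the same order, with 0 of 6 called against 2.14% of all genes. Without depolarized replicate 2 of the untreated inputs, the value of Jun was -0.49. Microglial markers summed to 11.9 to 14.2 CPM in resting knockdown inputs, above the 1.39 to 3.82 of resting inputs without siRNA, with 0 of 3 tested markers called. Endothelial markers were also above, at 65.2 to 65.6 CPM against 12.5 to 49.4. Below the range without siRNA were oligodendrocyte lineage markers, at 182 to 190 CPM against 244 to 608, and fibroblast and pericyte markers, at 169.7 to 174 against 232 to 435, while astrocyte markers lay within it and 10 of 10 neuronal markers were detected throughout. Of the markers tested, 1 of 6 astrocyte, 1 of 7 oligodendrocyte lineage and 1 of 5 fibroblast and pericyte genes were called lower, and 1 neuronal marker was called higher and 3 lower. The part of these markers in the AP-1 values was not tested, and siRNA and experiment cannot be told apart.

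Knockdown pulldowns were lower than their inputs in each state. At rest 5 of 6 were called by edgeR, with -0.57 for Fos (SE 0.09), -0.92 for Fosl2 (SE 0.15), -1.05 for Jun (SE 0.13), -0.80 for Junb (SE 0.16) and -1.03 for Jund (SE 0.15), against 23.4% of all genes called lower, and Fosb had -0.40 (SE 0.18, adjusted p = 0.068), with a call without pulldown replicate 2 (-0.62), without TMM (-0.51) and with no filter (-0.44). Depolarized, all 6 were called, from -1.08 for Fosl2 to -1.54 for Junb, against 24.8%.

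Ordered by level over the 14 groups, Fos ran from 2603 CPM in depolarized PSD95-TurboID inputs to 14.5 in DHPG pulldowns. The 6 depolarized groups came first, each overlapping the next, then the 6 resting groups without DHPG, with a gap that no library bridged between 734.9, the lowest knockdown depolarized pulldown, and 464.9, the highest resting input. Depolarized PSD95-TurboID pulldown replicate 1 (748.6) lay close to that edge. Fosl2 ran from 446.9 in depolarized PSD95-TurboID inputs to 53.7 in DHPG pulldowns, and resting and depolarized groups were mixed along its order, each of the first 9 overlapping the next.

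Across the 14 group means the members fell into sets of like pattern, given as Pearson correlations of log2 CPM, a description over 14 points that share depth and experiment. Fosb and Junb had 0.98, Jun and Junb 0.97, Fos and Fosb 0.96, and Fosl2 and Jund 0.92, whereas Fosb and Jund had 0.34. Among 7707 genes with a mean log2 level of at least 4, those most like Fos were Btg2 (0.97), an antiproliferative immediate early gene, Dusp1 (0.96), a MAP kinase phosphatase, and Nr4a1 (0.96), an orphan nuclear receptor. Most like Junb were Egr1 (0.996), a zinc finger immediate early factor, Spty2d1 (0.99) and Fosb, and most like Fosb were Junb, Egr1 (0.98) and Spty2d1 (0.97). For Jun they were Dnajb9 (0.97), a chaperone of the endoplasmic reticulum, Egr1 (0.97) and Junb. Fosl2 was closest to Btbd8 (0.98), Gripap1 (0.97) and Igsf5 (0.97), and Jund to Txlna (0.98), Fbxo7 (0.98) and Nucb1 (0.98).

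Other genes around AP-1 were read from fixed lists in the inputs of the KCl experiment, where, as above, 6.32% of all genes were called higher and 9.03% lower. Of 15 further dimer partners, 11 were tested, 3 rose and 1 fell, with a median log2 fold change of 0.26 against -0.01 over all genes. Atf3, a stress-induced partner of Jun, went from 5.54 ± 2.26 to 50.5 ± 13.1 CPM in Pan-TurboID inputs (SD, n = 3 each), a log2 fold change of 3.21 (SE 0.56). Fosl1, the gene of FRA1, went from 1.39 ± 0.659 to 10.5 ± 2.79 in the same inputs, with 2.77 (SE 0.52), and Maff, a small Maf protein, from 10.1 ± 2.39 to 27.2 ± 4.26, with 1.57 (SE 0.30). Atf2, a partner of Jun that is controlled by phosphorylation, fell with -0.96 (SE 0.18). In PSD95-TurboID pulldowns Fosl1, Atf3 and Maff were called higher as well, and none was called lower.

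Of 20 transcription factors and cofactors upstream of AP-1 genes, 17 were tested in inputs. Crem, a CREB relative with repressor forms (0.93, SE 0.23), and Mrtfb, a cofactor of SRF (0.39, SE 0.12), rose, while Mef2d (-0.47, SE 0.15) and Crebbp (-0.47, SE 0.16), a coactivator of CREB, fell, and the median was 0.04. Of 20 MAP kinase pathway genes, 18 were tested, 0 rose and 5 fell: Mapk10 (-1.44, SE 0.21), Mapk8 (-0.51, SE 0.15) and Mapk9 (-0.51, SE 0.16), the 3 JNK genes whose products phosphorylate Jun, with Mapk7 (-0.70, SE 0.23), the gene of ERK5, and Rps6ka3 (-0.75, SE 0.19), a kinase of the RSK family. Mapk10 and Mapk9 were called lower in PSD95-TurboID pulldowns and in knockdown inputs too. Of 15 genes of mRNA and protein turnover, 14 were tested and 2 fell, the RNA-binding proteins Khsrp (-0.67, SE 0.15) and Elavl3 (-0.58, SE 0.15), with 0 higher. Of 17 textbook targets of AP-1, 12 were tested and 0 passed in either direction, with a median of 0.10. Several of those tested had mean levels of only a few CPM in these inputs, so the count does not show that targets failed to respond. For comparison, 4 of 4 Egr genes rose, with a median of 3.27, and 2 of 3 Nr4a genes rose, Nr4a1 (3.36, SE 0.28) and Nr4a2 (0.79, SE 0.20). These lists were chosen with results of these data known and are described by their counts only. No test set these lists against all genes, and counts such as 2 higher and 2 lower of 17 or 2 lower of 14 lie near those shares.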

How the data were processed

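Ribosome footprints were measured in 38 libraries of mouse cortical neurons. According to their methods, the authors trimmed and demultiplexed reads, aligned them to mm10 with Rsubread and counted them with plastid. Per the file headers, footprint 5′ ends were counted per exon segment without an offset, from alignments whose name marks removal of ribosomal RNA and duplicates. Use of strand and multiply aligned reads is not given in the sources used here. For each segment of a CDS, 5′ UTR or 3′ UTR, the deposited files give unnormalized counts. The deposited RPKM values equal those counts scaled by length and total, and were used only for that check. Such duplicate removal can flatten strongly translated short genes.

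From the deposited counts, 1 transcript per gene, the longest, was used: 66664 of 67238 coding transcripts (99.1%) matched GENCODE M21 symbols, giving 22401 genes. Levels are CPM, CDS counts scaled to a common sum of CDS counts per library. Comparisons used edgeR 4.0.16 in R 4.3.3 (quasi-likelihood F test, TMM, filterByExpr, Benjamini-Hochberg at 0.05). The fits held 24 (KCl), 6 (DHPG) and 8 (knockdown) libraries, or PSD95-TurboID libraries of both experiments across them. SEs are the log2 fold change over the root of F, and intervals (95%) use the degrees of freedom of that test. 5′ UTR counts were tested with the CDS library sizes and TMM factors. Shares were compared by exact permutation of 6 against 6 inputs (924 regroupings). Scripts were tested on simulated data.

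In the KCl experiment, pulldown and input of 1 number, ligase and state share a culture. Resting and depolarized cultures of 1 number were processed together, so numbers pair libraries. The replicate block was the number within each state where pulldowns were set against inputs. For responses to KCl and their interaction with fraction it was the number alone. Deviations from group means correlated at 0.13 to 0.71 between same-numbered libraries of 1 state, and at -0.29 to 0.42 across states. DHPG pairs had -0.23 to 0.06, and same-numbered knockdown libraries -0.02 to 0.06.

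The 6 members and all lists were chosen with earlier results of these data known. The named genes are the 6 members, Eif4g2, called genes of the fixed lists, and the 3 genes most correlated with each member over group means of log2(CPM + 0.5). Promoter windows are those of RefSeq on GRCm38.p6. Alternatives were edgeR's likelihood ratio test, DESeq2 1.42.0, other scalings, no filter, the transcript with most counts, removal of a length trend, a replicate block and leaving out replicates.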

Additional observations from a re-analysis of the deposited data

How the results depend on the processing

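Of 1554 values of the 6 genes under alternatives, 1465 kept direction and side of the threshold, 22 lost their call, 43 gained one and 24 changed sign, none of the latter called on either side. KCl called 4 members in inputs and PSD95-TurboID pulldowns under every setting. Members called in resting PSD95-TurboID pulldowns over inputs (1) were 4 by the likelihood ratio test and DESeq2, 3 without TMM, 5 with the replicate block and 0 to 3 without 1 replicate. Calls over all genes moved too, from 4055 to 4533, 4620, 4007, 5582 and 16 to 3600 in the same order. In depolarized ones (0) they were 1 by DESeq2, 5 with the block and 0 to 3 without 1 replicate, where calls over all genes went from 2344 to 3067, 4304 and 17 to 2903. For Pan-TurboID pulldowns over inputs the block gave 3 at rest (0 to 1 without 1 replicate) and 2 depolarized, from 0, while calls over all genes went from 1245 to 3660 and from 1150 to 3637. The block changed no other count of members called. Resting knockdown against untreated inputs (1) gave 2 by the likelihood ratio test, by DESeq2 and without a filter, and 0 to 2 without 1 replicate, while calls over all genes went from 515 to 783, 897, 741 and 58 to 506 in the same order. Depolarized ones (0) gave 1 by DESeq2 and without a filter, where calls over all genes went from 702 to 1177 and 944. 5′ UTR calls in PSD95-TurboID pulldowns (4) were 0 to 4 without 1 replicate, where calls over all genes, 29 with all replicates, were 0 to 312. Eif4g2 kept its direction, at -1.01 to -0.94 resting and -0.99 to -0.73 depolarized, but lost its call without either knockdown input (edgeR adjusted p from 0.0972 to 0.114). Without TMM the median of all genes shifted by over 0.1 in DHPG pulldowns over inputs (-0.21), DHPG against resting pulldowns (-0.23) and inputs (-0.10), and knockdown pulldowns over inputs (-0.11 at rest, -0.10 depolarized). The cause of these changes was not tested.

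The values that changed sign had not passed the test. The largest of them on the log2 scale were those of Jun, 0.66 in the interaction with KCl and -0.63 in inputs for knockdown minus untreated. Jund with KCl in PSD95-TurboID pulldowns was -0.003663 by DESeq2, -0.01744 with the transcript of most counts, -0.002493 with the replicate block and -0.14 to 0.11 without 1 replicate. In knockdown inputs it was 0.015 by DESeq2, 0.013 with RLE factors and -0.11 to 0.044 without 1 replicate. The change of the Jun share was -0.16 percentage points with plain counts and -3.60 to 3.34 without 1 replicate. Without 1 replicate, KCl in Pan-TurboID pulldowns gave -0.23 to 0.14 for Jund and -0.17 to 0.23 for Fosl2, the interaction with KCl -0.004688 to 0.23 for Fosl2 and -0.042 to 0.96 for Jun, depolarized Pan-TurboID pulldowns over input -0.25 to 0.049 for Fos, and PSD95-TurboID beyond Pan-TurboID -0.14 to 0.27 for Fosb. The response with knockdown minus that without ranged in inputs over -0.93 to 0.19 for Jun, -0.066 to 0.40 for Junb and -0.050 to 0.39 for Jund, and in pulldowns over -0.94 to 0.26 for Fosb and -0.56 to 0.034 for Jund. Fosb had the fewest CDS counts of the 6 genes in each resting library, 50 to 505.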
